A study of Mus musculus with 16 samples.

Results

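Aminoacyl-tRNA synthetases are the enzymes that attach each amino acid to its own tRNA, the step that reads the genetic code. The genes described here were taken by symbol from a list that uses no measured value, though it was drawn up with earlier results of these data known. They are the genes of 20 cytosolic synthetase chains, of 16 mitochondrial synthetases (all with names ending in 2) and of 3 scaffold proteins that hold several cytosolic enzymes together. All 39 were found among the 47069 genes of the table, and all 39 passed the filter on low counts.

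RNA-seq was performed on bone marrow-derived macrophages (BMMs), which were grown from the marrow of C57BL/6 mice in medium conditioned by L929 cells. All cells were primed overnight with IFNγ at 10 ng/mL. They were then activated for 1 hr with LPS at 100 ng/mL together with immune complexes (ICs) of ovalbumin and IgG against it. One group received DAPT at 25 μM, a γ-secretase inhibitor (GSI) that blocks the release of the Notch intracellular domain and the cleavage of many other membrane proteins, and the other received DMSO at 0.01% as vehicle. Each group had 2 replicates, and each replicate had 4 columns of counts, which were taken as runs of 1 library and added up. Per the study's methods, cells were kept overnight with DAPT or DMSO ahead of the activation, while legends of other assays give a shorter pretreatment. The 1 hr is thus the time of activation and not of the inhibitor. Both groups were primed and activated, so no value below describes resting cells. No label says that the replicates came from separate cultures or mice, so the p-values measure the spread between these libraries, which may be technical.

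In the cytosol, 8 of these enzymes sit in a multisynthetase complex around the scaffold proteins Aimp1, Aimp2 and Eef1e1, while the others work freely. Mitochondria translate their own small set of mRNAs with a separate set of synthetases, which are encoded in the nucleus and imported. Gars and Kars, the glycyl and lysyl enzymes, each serve both compartments from a single gene. Several cytosolic synthetase genes belong to the amino acid response, in which the transcription factor ATF4 raises genes for the uptake, synthesis and charging of amino acids when uncharged tRNA or other stresses inhibit the initiation factor eIF2. Wars, the tryptophanyl enzyme, is in addition induced by interferon γ.

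The 4 libraries held 42694655 to 56932059 counts. The cells carried the macrophage markers: 7 such genes summed to 10430 to 10723 CPM (counts scaled to a common library size) in the DMSO libraries and to 8403 to 9186 CPM in the GSI libraries, with 5 of the 7 lower and 1 higher with GSI. The summed markers of neutrophils, T cells, B cells, dendritic cells and fibroblasts each stayed at or under 1.08 CPM in every library. The part of the lower macrophage markers in the results below was not tested. In bulk RNA, fewer cells of a type and less RNA per cell cannot be told apart.

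Most cytosolic synthetase mRNAs were called higher with GSI, and 2 of the mitochondrial ones were. A gene was called when its false discovery rate (FDR) in edgeR's quasi-likelihood test, adjusted over all 13211 genes tested, was under 0.05. By this rule 15 of the 20 cytosolic genes were higher and 1 was lower, and 2 of the 16 mitochondrial genes were higher and 0 lower. Of the 3 scaffold genes 2 were higher. Among all genes tested, 19.0% were called higher and 21.9% lower, 40.8% in all. Nearly all mitochondrial fold changes were positive as well (15 of 16), with larger standard errors, and the difference between the compartments was not tested. The median log2 fold change was 0.35 over the cytosolic genes, 0.16 over the mitochondrial genes and 0.26 over the scaffold genes, and 0.01 over all genes tested. These were moderate changes: no member passed an absolute log2 fold change of 1.5, which 2.91% of all genes passed while being called. Of the 39 members, 36 had a positive fold change, against 51.6% of all genes tested.

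**Figure D1:**
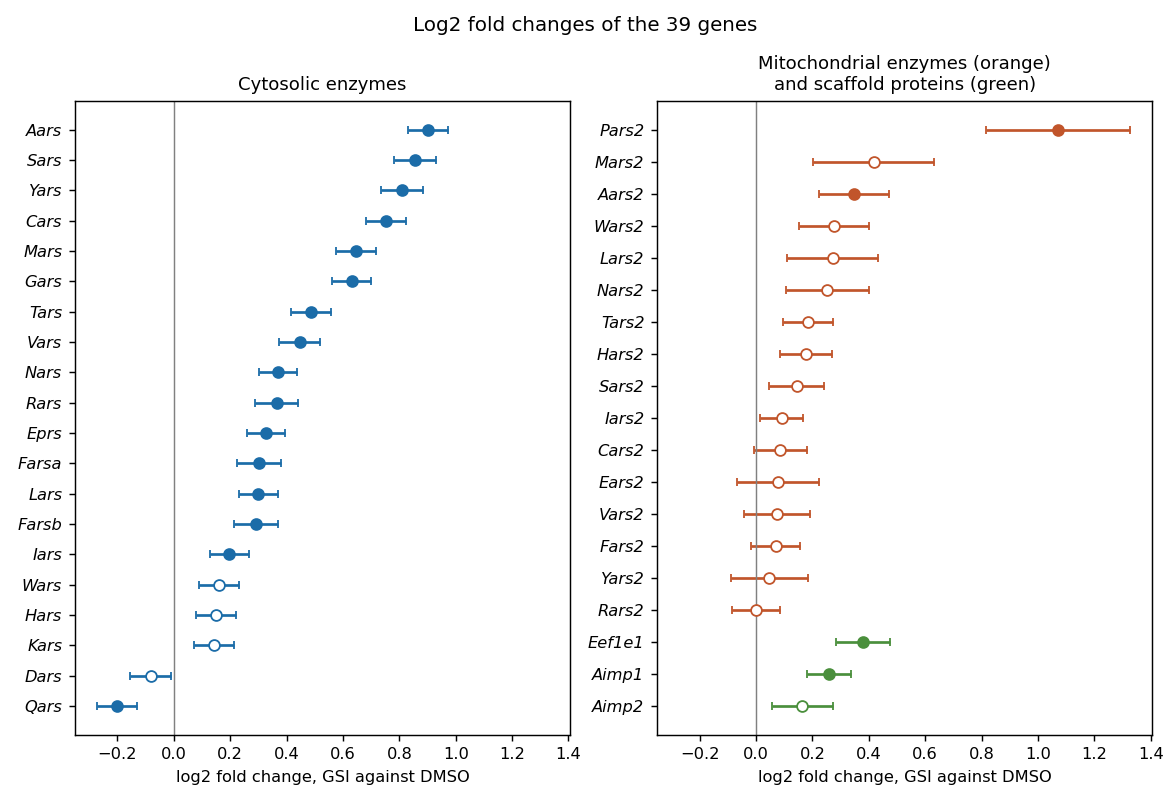
Log2 fold change (x axis) of each of the 39 genes with GSI against DMSO, with bars of 1 standard error; filled points were called at an FDR under 0.05. Of the cytosolic points 18 of 20 lie right of 0, from -0.20 for Qars to 0.90 for Aars, and all but 2 mitochondrial points, Pars2 and Aars2, are open.

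The alanyl, seryl, tyrosyl, cysteinyl and methionyl enzymes had the largest increases among the cytosolic genes called. Aars, which charges alanine tRNA and lies at chr8:111033144-111057664 on the plus strand (mouse build GRCm38, as are all positions given here), was at 168 and 179 CPM in the DMSO libraries and at 329 and 320 CPM in the GSI libraries. Both GSI libraries were far above both DMSO libraries, and the difference was 1.87-fold, with a log2 fold change of 0.90 ± 0.0705 (SE) and an FDR of 3.73e-09. Of the runs of 50 bases in its annotated transcripts, 13.5% also occur in transcripts of Exosc6, its neighbour on the same strand, so reads there could not be assigned with certainty.

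Sars, the seryl enzyme at chr3:108424865-108445209 on the minus strand, was at 114 and 108 CPM with DMSO and at 211 and 191 CPM with GSI. It stood 1.81-fold higher, with a log2 fold change of 0.86 ± 0.0732 and an FDR of 1.22e-08, and the groups did not overlap. Yars, the tyrosyl enzyme at chr4:129189760-129219607 on the plus strand, was at 37.6 and 38.4 CPM with DMSO and at 63.8 and 69.4 CPM with GSI. The DMSO libraries lay close together and both GSI libraries were well above them, with a log2 fold change of 0.81 ± 0.0748 and an FDR of 3.7e-08.

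Cars, the cysteinyl enzyme at chr7:143557230-143600090 on the minus strand, was at 74.4 and 75.8 CPM with DMSO and at 129 and 124 CPM with GSI. Its groups were again apart, with a log2 fold change of 0.75 ± 0.0700 and an FDR of 4.04e-08. Mars, the methionyl enzyme of the complex at chr10:127296221-127311786 on the minus strand, was at 50 and 49.1 CPM with DMSO and at 76.1 and 78.9 CPM with GSI. It was 1.56-fold higher in libraries that differed little within a group, with a log2 fold change of 0.64 ± 0.0713 and an FDR of 4.19e-07. The last exons of Mars and of Ddit3, which encodes the stress factor CHOP, face each other and share 68 bases on opposite strands. Ddit3 itself went from 35.0 and 34.1 CPM with DMSO to 85.4 and 72.1 CPM with GSI, and how far reads of that shared stretch were kept apart was not tested.

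**Figure D2:**
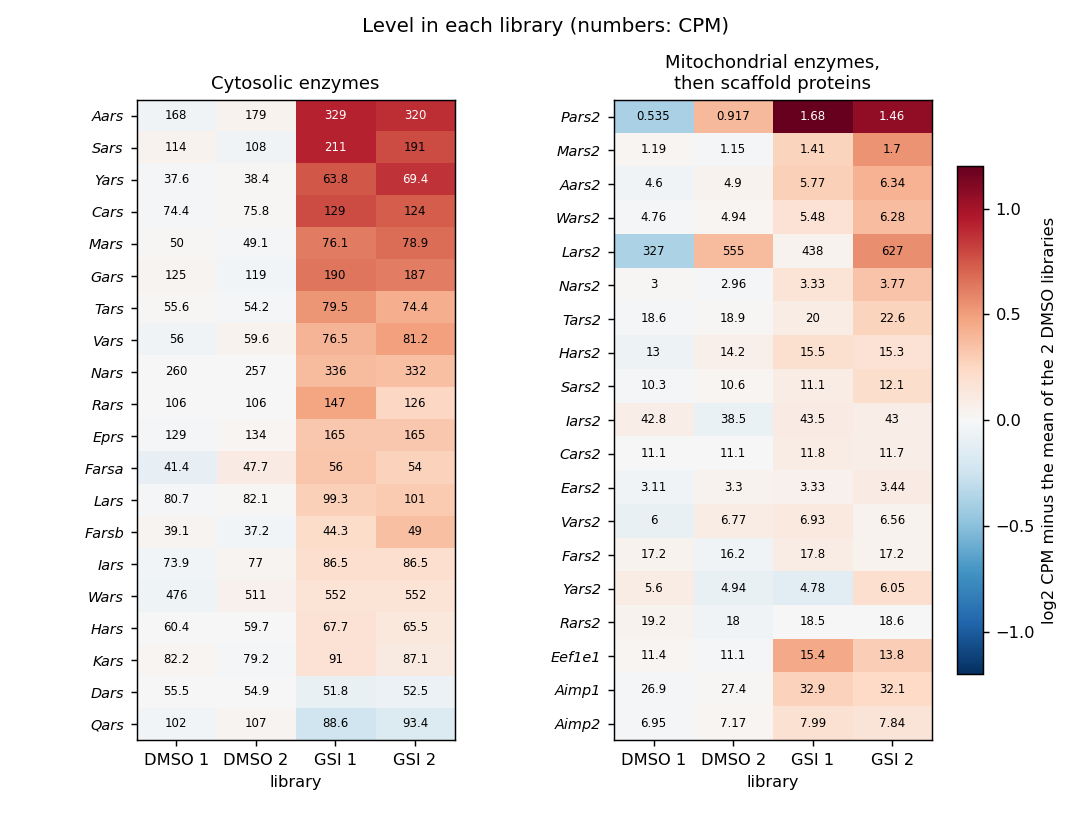
Level of each member in each of the 4 libraries: the number in a cell is the CPM, and the colour is the log2 CPM minus the mean of the 2 DMSO libraries. The 2 GSI columns are red for most cytosolic genes, while most mitochondrial rows are pale in all 4 columns, except Pars2 and Lars2, which also differ between the DMSO libraries.

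Gars, the glycyl enzyme of both compartments at chr6:55038007-55079500 on the plus strand, was at 125 and 119 CPM with DMSO and at 190 and 187 CPM with GSI. It rose 1.55-fold with no overlap of the groups (log2 fold change 0.63 ± 0.0691, FDR 3.67e-07). Kars, the other enzyme that works in both places and a member of the complex, was at 82.2 and 79.2 CPM with DMSO and at 91.0 and 87.1 CPM with GSI. Both GSI libraries were above both DMSO libraries, but the log2 fold change of 0.14 ± 0.0704 did not pass (FDR 0.114, 95% interval -0.00 to 0.29).

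Wars was by far the most abundant synthetase mRNA in these IFNγ-primed cells, at 143 CPM per kb of annotated exon with DMSO, against 6.39 to 59.3 CPM per kb for the other cytosolic genes, with Nars, the asparaginyl enzyme, next. It was at 476 and 511 CPM in the DMSO libraries and at 552 CPM in both GSI libraries. The GSI libraries were the higher ones, yet the log2 fold change of 0.16 ± 0.0722 did not pass (FDR 0.0835, 95% interval 0.01 to 0.31), while it did with a replicate block (FDR 0.0389). Wars made up 21.8 and 22.9% of the summed cytosolic CPM with DMSO and 18.8 and 19.1% with GSI.

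Eprs, a single protein that charges both glutamate and proline tRNA in the complex, was at 129 and 134 CPM with DMSO and at 165 CPM in both GSI libraries. Its mean was 25.4% higher (log2 fold change 0.33 ± 0.0686, FDR 0.000705). Qars, the glutaminyl enzyme of the complex at chr9:108507706-108515941 on the plus strand, was the one member called lower, at 102 and 107 CPM with DMSO and 88.6 and 93.4 CPM with GSI. Both GSI libraries were below both DMSO libraries, and the log2 fold change was -0.20 ± 0.0710 with an FDR of 0.0292. This call was lost without DMSO replicate 2 (FDR 0.209) and without GSI replicate 1 (FDR 0.134), with the direction kept. Qars has no mitochondrial partner, because mitochondria make their glutaminyl-tRNA by converting glutamyl-tRNA.

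The other cytosolic genes called higher were Tars (0.49), Vars (0.45), Nars (0.37), Rars (0.36), Lars (0.30), Iars (0.20) and the chains Farsa (0.30) and Farsb (0.29) of the phenylalanyl enzyme, each with its log2 fold change, for the enzymes of threonine, valine, asparagine, arginine, leucine, isoleucine and phenylalanine. The call of Iars was lost whichever of the 4 libraries was left out (FDR 0.0616 to 0.204). The call of Farsa was lost without DMSO replicate 1 (FDR 0.115), and that of Farsb without DMSO replicate 2 (FDR 0.0507) and without GSI replicate 2 (FDR 0.0575). Hars, the histidyl enzyme, with a log2 fold change of 0.15 ± 0.0708 (FDR 0.0986), and Dars, the aspartyl enzyme, with -0.08 ± 0.0713 (FDR 0.379), did not pass. In total the GSI libraries lay above both DMSO libraries for 18 cytosolic genes and below both for 2, Qars and Dars, where 35.8% and 34.8% of all genes tested were placed in these ways, 70.6% in all.

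The summed cytosolic level was 2187 and 2236 CPM in the DMSO libraries and 2940 and 2889 CPM in the GSI libraries, a ratio of means of 1.32. The 2 libraries of each group lay much closer to each other than to the other group. Without Wars the sum was 1711 and 1725 CPM with DMSO and 2388 and 2337 CPM with GSI, a ratio of 1.38.

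Of the cytosolic genes, 11 are known as genes of the amino acid response (Aars, Cars, Eprs, Gars, Iars, Mars, Nars, Sars, Tars, Wars and Yars). Among them 10 were called higher and 0 lower, with a median log2 fold change of 0.63 and a range of 0.16 to 0.90, and Wars was the one not called. Of the other 9, 5 were called higher and 1 lower, with a median of 0.29 and a range of -0.20 to 0.45. The ranges of the 2 sets overlapped: Vars at 0.45 and Rars at 0.36, outside the response set, were above Eprs, Iars and Wars, inside it. By membership in the complex, 5 of its 8 enzymes were higher and 1 lower with a median of 0.25. Of the 12 free enzymes 10 were higher and 0 lower with a median of 0.47. Among all genes tested 19.0% were called higher and 21.9% lower. The 2 splits cannot be told apart here: of the complex only Eprs, Iars and Mars are in the response set, while most free enzymes are.

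The scaffold genes moved less than the leading enzymes. Eef1e1, which encodes the smallest of the 3 scaffold proteins, was at 11.4 and 11.1 CPM with DMSO and 15.4 and 13.8 CPM with GSI, both GSI libraries being higher, with a log2 fold change of 0.38 ± 0.0957 and an FDR of 0.00336. Aimp1, whose protein binds the arginyl enzyme in the complex, was at 26.9 and 27.4 CPM with DMSO and 32.9 and 32.1 CPM with GSI. The groups were apart (log2 fold change 0.26 ± 0.0770, FDR 0.0106), and the call was lost without DMSO replicate 1 (FDR 0.0646). Aimp2, which joins several enzymes of the complex, was at 6.95 and 7.17 CPM with DMSO and 7.99 and 7.84 CPM with GSI. Its groups did not overlap either, but the log2 fold change of 0.16 ± 0.108 did not pass (FDR 0.243). Of the exon bases of Aimp2, 29.4% are also exon bases of Eif2ak1, a kinase of eIF2, on the other strand, the highest share of any member.

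To show the promoters beside these values, sequence from 250 bases before to 50 bases after the annotated start was taken from RefSeq (build GRCm38.p6). Of the 39 members, 30 matched an entry, and Cars, Hars, Lars, Nars, Rars, Vars, Wars, Hars2 and Pars2 did not. Each promoter was searched on both strands for TGATGNAA, the core of the C/EBP-ATF composite element that ATF4 is known to bind, where N is any base. A match was present in 5 of the 13 cytosolic promoters (38.5%), in 0 of 14 mitochondrial and in 0 of 3 scaffold genes, against 4.51% of the 27025 genes in the same table. The motif overlaps other ATF and C/EBP motifs, and a match is a run of letters and not a measured binding site. The 5 promoters with a match are printed 5′ to 3′ along the gene's strand, with the matches in capitals (read on the opposite strand in all but Yars), because their genes include 2 of the largest changes, Aars and Yars, and also Iars, the smallest called increase among the cytosolic genes.
Aars, chr8:111033592-111033891, plus strand: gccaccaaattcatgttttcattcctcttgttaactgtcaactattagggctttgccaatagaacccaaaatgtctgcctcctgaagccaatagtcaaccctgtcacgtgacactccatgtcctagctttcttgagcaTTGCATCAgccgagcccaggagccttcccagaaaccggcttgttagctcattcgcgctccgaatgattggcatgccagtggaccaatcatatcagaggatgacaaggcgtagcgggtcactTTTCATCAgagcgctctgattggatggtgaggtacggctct
Yars, chr4:129189653-129189952, plus strand: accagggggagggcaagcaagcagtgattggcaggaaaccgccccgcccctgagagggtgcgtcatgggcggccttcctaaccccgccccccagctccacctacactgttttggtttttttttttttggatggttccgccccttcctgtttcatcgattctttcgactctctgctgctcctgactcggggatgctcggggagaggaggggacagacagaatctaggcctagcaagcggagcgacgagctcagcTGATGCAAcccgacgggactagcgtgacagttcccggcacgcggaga
Gars, chr6:55037751-55038050, plus strand: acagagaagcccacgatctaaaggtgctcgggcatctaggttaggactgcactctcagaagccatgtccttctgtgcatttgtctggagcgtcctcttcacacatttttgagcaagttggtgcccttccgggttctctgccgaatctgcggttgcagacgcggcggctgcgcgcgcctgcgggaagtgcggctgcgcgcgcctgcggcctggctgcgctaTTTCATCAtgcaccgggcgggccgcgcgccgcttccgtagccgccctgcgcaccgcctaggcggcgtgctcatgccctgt
Tars, chr15:11399609-11399908, minus strand: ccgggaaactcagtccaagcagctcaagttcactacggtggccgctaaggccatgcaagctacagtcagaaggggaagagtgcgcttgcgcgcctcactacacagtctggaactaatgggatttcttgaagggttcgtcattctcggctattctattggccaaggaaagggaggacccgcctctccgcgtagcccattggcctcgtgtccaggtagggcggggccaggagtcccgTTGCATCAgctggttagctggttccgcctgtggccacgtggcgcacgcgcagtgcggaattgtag
Iars, chr13:49681880-49682179, plus strand: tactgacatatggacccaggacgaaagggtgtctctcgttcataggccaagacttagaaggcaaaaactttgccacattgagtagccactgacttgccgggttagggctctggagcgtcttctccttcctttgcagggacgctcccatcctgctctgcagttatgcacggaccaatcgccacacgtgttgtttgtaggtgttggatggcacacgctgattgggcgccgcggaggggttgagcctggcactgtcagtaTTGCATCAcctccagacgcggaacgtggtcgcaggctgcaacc

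In these promoters the first base of the match lay between 30 bases before the start and base 10, where the start itself is the first base. The exception was the other match of Aars, which began 112 bases before the start. The promoters of Sars and Mars, whose log2 fold changes were 0.86 and 0.64, held no such letters in this window. Neither did that of Qars, the gene that fell.

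Apart from Lars2, the mitochondrial synthetases were at 0.103 to 6.72 CPM per kb of exon with DMSO, most of them below every cytosolic gene. Without Lars2 their summed level was 161 and 157 CPM in the DMSO libraries and 171 and 176 CPM in the GSI libraries. Both GSI libraries were higher, by a ratio of means of 1.09, where the cytosolic sum stood at 1.32. For 12 of the 16 mitochondrial genes both GSI libraries were above both DMSO libraries, and for 4 the groups overlapped, where 35.8% of all genes tested were above and 70.6% did not overlap. The count of 2 mitochondrial genes called became 5 without GSI replicate 1, and 1 without DMSO replicate 1 or without GSI replicate 2.

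Pars2, the mitochondrial prolyl enzyme at chr4:106651069-106655282 on the plus strand, had the largest log2 fold change of all members. It had only 23 and 52 counts under DMSO, against 81 and 72 under GSI, that is 0.535 and 0.917 CPM against 1.68 and 1.46 CPM. Both GSI libraries were above both DMSO libraries, but the DMSO libraries differed by more than the GSI libraries did. The log2 fold change was 1.07 ± 0.256 with an FDR of 0.00219, and it ranged from 0.77 without DMSO replicate 1 to 1.54 without DMSO replicate 2, still called with any 1 library removed. Its standard error was the largest of the 39.

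Aars2, the mitochondrial alanyl enzyme at chr17:45506841-45520843 on the plus strand, was at 4.6 and 4.90 CPM with DMSO and at 5.77 and 6.34 CPM with GSI. The groups were apart, with a log2 fold change of 0.35 ± 0.123 and an FDR of 0.0297. The call was lost in 3 of the 4 fits that left out 1 library (FDR 0.137 without DMSO replicate 1, 0.0609 without DMSO replicate 2 and 0.145 without GSI replicate 2) and in DESeq2 (FDR 0.141).

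The other 14 mitochondrial genes were not called, with log2 fold changes from -0.00 for Rars2 to 0.42 for Mars2. With a replicate block Tars2 (FDR 0.0433) and Wars2 (FDR 0.0388) were called, as was Lars2, described below. Mars2 (0.42), Wars2 (0.28), Lars2 (0.27), Nars2 (0.25), Tars2 (0.18), Hars2 (0.18) and Sars2 (0.14), which serve methionine, tryptophan, leucine, asparagine, threonine, histidine and serine, had the higher values. Cars2 (0.09), Iars2 (0.09), Ears2 (0.08), Vars2 (0.07), Fars2 (0.07), Yars2 (0.05) and Rars2 (-0.00), for cysteine, isoleucine, glutamate, valine, phenylalanine, tyrosine and arginine, were nearest to 0. Yars2 was at 5.60 and 4.94 CPM with DMSO and 4.78 and 6.05 CPM with GSI, and Rars2 at 19.2 and 18 CPM with DMSO and 18.5 and 18.6 CPM with GSI, so that the groups overlapped in both. A missed threshold here does not show that a gene was level: standard errors were 0.0768 to 0.256 in this group, against 0.0686 to 0.0792 among the cytosolic genes. For 6 of the 16 the 95% interval lay wholly below the cytosolic median of 0.35, and for 9 it held that median.

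Lars2, the mitochondrial leucyl enzyme at chr9:123366927-123462666 on the plus strand, stood apart from the other mitochondrial genes in its level. It made up 67.0 to 78.1% of their summed CPM, and was at 327 and 555 CPM with DMSO and at 438 and 627 CPM with GSI. The highest DMSO library was above the lowest GSI library, and the difference within each group was larger than that between the group means. The log2 fold change of 0.27 ± 0.162 (FDR 0.191) became -0.06 without DMSO replicate 1 and 0.70 without DMSO replicate 2. It was called without DMSO replicate 2 (FDR 8.53e-07), without GSI replicate 1 (0.51, FDR 3.77e-08), without the filter on low counts (0.28, FDR 0.000911) and with a replicate block (0.30, FDR 5.12e-05). Gm42418, a noncoding gene in a ribosomal RNA-like stretch that was looked up after these values were seen, was at 492 and 2139 CPM with DMSO and at 1383 and 1722 CPM with GSI, so DMSO replicate 1 was the lowest library for both. The part of this in the level of Lars2 was not tested. Without Lars2 the median of the mitochondrial genes was 0.14 in place of 0.16.

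**Figure D3:**
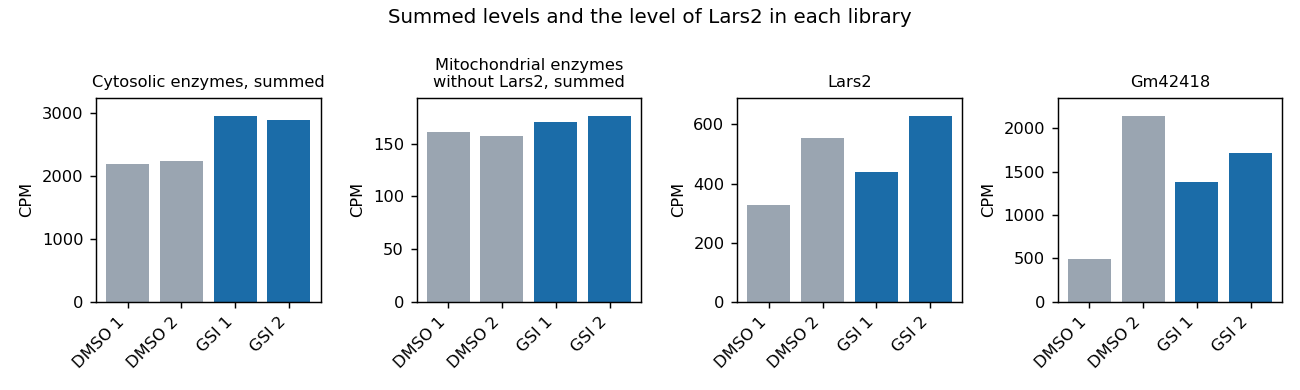
CPM in each library (grey for DMSO, blue for GSI; each panel has its own scale from 0) of the summed cytosolic enzymes, the summed mitochondrial enzymes without Lars2, Lars2 itself and the noncoding gene Gm42418. The cytosolic sum is higher in both GSI libraries (2940 and 2889 against 2187 and 2236 CPM), while Lars2 and Gm42418 differ in proportion more within the DMSO group than the cytosolic sum does between groups.

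The medians of the cytosolic and mitochondrial genes differed by 0.19 on the log2 scale. Restricting both to genes with no exon on the other strand left 14 cytosolic genes with a median of 0.31 and 9 mitochondrial genes with a median of 0.27, a difference of 0.04, so the size of the difference between medians rested on which genes were included. Among them 10 of the 14 cytosolic genes were called higher (71.4%, against 75.0% in the full list) and 1 lower. Of the 9 mitochondrial genes 2 were called higher (22.2%, against 12.5% in the full list). Among all genes tested, 19.0% were called higher. The ratio of the summed cytosolic CPM to the summed mitochondrial CPM without Lars2 went from 13.6 and 14.2 in the DMSO libraries to 17.2 and 16.4 in the GSI libraries, with no overlap of the groups. With Lars2 this ratio stood at 4.48 and 3.14 under DMSO, against 4.83 and 3.59 under GSI, and the groups overlapped.

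Enzymes for the same amino acid were then set side by side. The 17 pairs use Eprs and Fars2 in 2 pairs each, since Eprs has partners for glutamate and for proline and Fars2 is set against both chains of the cytosolic phenylalanyl enzyme. In 14 of the 17 pairs the cytosolic gene had the larger log2 fold change. The cytosolic to mitochondrial ratio of CPM was higher in both GSI libraries in 12 pairs and lower in both in 1 pair (Eprs to Pars2). It overlapped between the groups in 4 pairs (histidine, isoleucine, leucine and tryptophan). Of all genes tested, taken singly, 35.8% were above and 70.6% did not overlap. The share for ratios of other gene pairs was not computed, so these counts are a description only.

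The widest gap was that of tyrosine, where the ratio of Yars to Yars2 went from 6.72 and 7.77 under DMSO to 13.4 and 11.5 under GSI. Both GSI libraries were well above both DMSO libraries, and the log2 fold changes were 0.81 and 0.05. For serine, the ratio of Sars to Sars2 went from 11 and 10.2 to 19.0 and 15.8. For cysteine, the ratio of Cars to Cars2 went from 6.70 and 6.85 to 11 and 10.5, so each of these 3 pairs moved toward the cytosolic gene in every GSI library. Proline went the other way: the ratio of Eprs to Pars2 fell from 241 and 146 under DMSO to 98.2 and 113 under GSI, and it rests on the low counts of Pars2. For histidine the pair Hars and Hars2, which lie head to head and share 195 exon bases on opposite strands, had close log2 fold changes of 0.15 and 0.18.

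**Figure D4:**
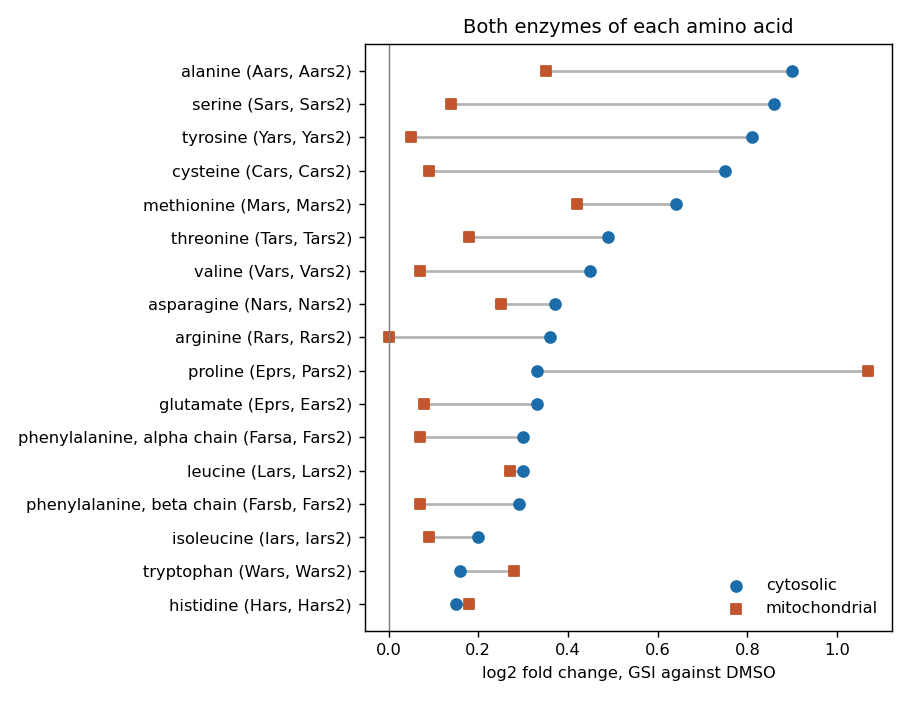
Log2 fold change with GSI against DMSO (x axis) of the cytosolic gene (blue circle) and the mitochondrial gene (orange square) for the same amino acid, joined by a line, with pairs ordered by the cytosolic value. The cytosolic point lies to the right in 14 of 17 pairs, and proline, tryptophan and histidine are the exceptions.

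Of 13 other genes of tRNA charging, 4 were called higher and 2 lower, a share near the 40.8% of all genes called, with a median log2 fold change of 0.22, and DESeq2 called 3. Qrsl1, a subunit of the amidotransferase that makes mitochondrial glutaminyl-tRNA, was higher by 0.50 ± 0.111 on the log2 scale (FDR 0.00128). Tarsl2, a paralog of the threonyl enzyme, was at 5.37 and 4.72 CPM with DMSO and 3.62 and 3.2 CPM with GSI. It fell by 0.56 on the log2 scale (SE 0.139, FDR 0.0029) while Tars rose by 0.49.

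Of the 5 cytosolic elongation factor genes, 1 was higher and 1 lower, a share near the 40.8% of all genes called, with a median of 0.06. They were Eef1d, a subunit of the exchange factor for eEF1A, at 0.19 ± 0.0718 (FDR 0.0384), and Eef2, the translocation factor, at -0.22 ± 0.0738 (FDR 0.0236). With 1 library left out, Eef1d was called in 1 of 4 fits and Eef2 in 2 of 4, and neither was called without DMSO replicate 2. Of the 76 genes of mitochondrial ribosomal proteins, 48 were called higher and 0 lower, where 19.0% of all genes were called higher and 21.9% lower. Their median was 0.26, and Mrpl12 had the largest value at 0.55 ± 0.0758. Without DMSO replicate 2, 27 of the 76 were called.

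The ATF4 pathway outside the synthetases was the list with the largest values. Of 18 genes, 14 were higher and 0 lower with a median of 0.93, and 5 passed an absolute log2 fold change of 1.5. Among all genes tested 19.0% were called higher, and 2.91% passed 1.5 while being called. Chac1, a glutathione-degrading enzyme, was at 2.18 ± 0.158, Phgdh, which opens serine synthesis, at 2.13 ± 0.0891 and Trib3, a pseudokinase that restrains ATF4, at 2.09 ± 0.113. Atf4 itself was at 239 and 253 CPM with DMSO and at 476 and 444 CPM with GSI, a log2 fold change of 0.90 ± 0.0726 that equals that of Aars to 2 decimals. Asns, asparagine synthetase, which makes the amino acid that Nars charges, rose by 1.53 against 0.37 for Nars. The same motif was found in 6 of the 17 promoters of this list that had an entry (35.3%), those of Asns, Trib3, Chac1, Nupr1, Slc7a11 and Vldlr. Slc7a11, with 2 matches, was not called (log2 fold change -0.07, FDR 0.589), and neither was Vldlr (0.13, FDR 0.832). The promoters of Phgdh and of Atf4 itself held no match.

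**Figure D5:**
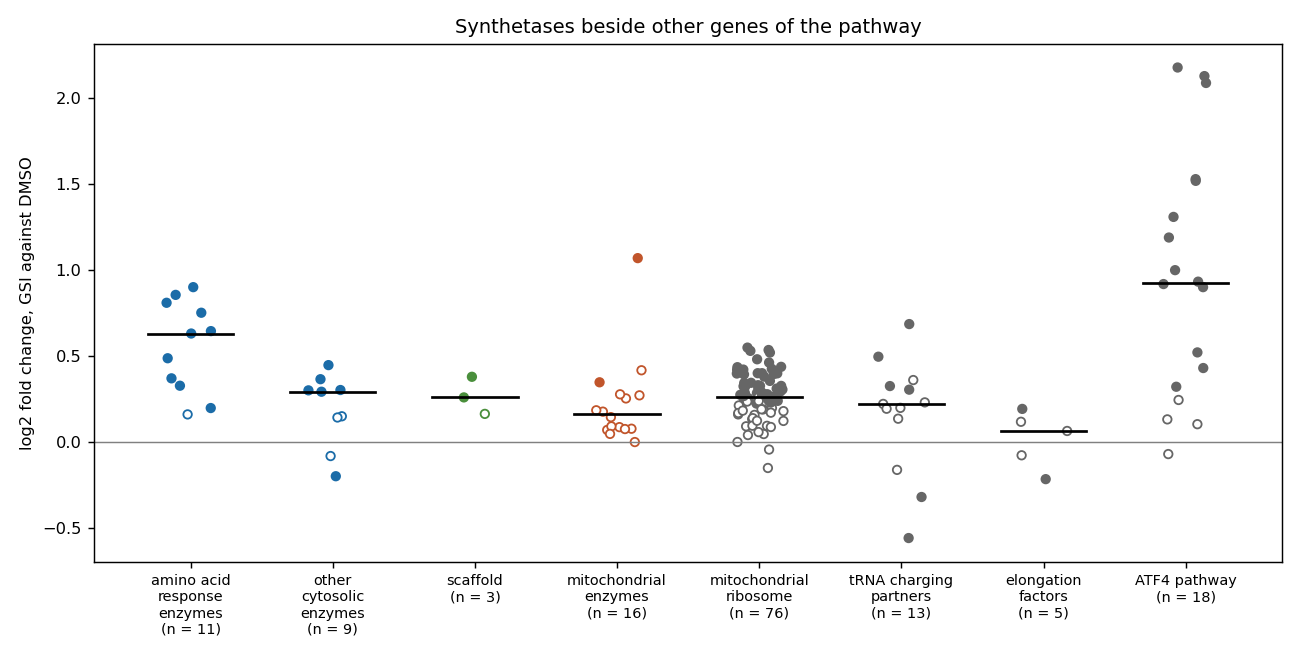
Log2 fold change with GSI against DMSO (y axis) of each gene in 8 lists, with filled points for genes called at an FDR under 0.05 and a bar at the median. The medians are 0.63 for the amino acid response enzymes, 0.29 for the other cytosolic enzymes, 0.26 for the scaffold, 0.16 for the mitochondrial enzymes, 0.26 for the mitochondrial ribosome, 0.22 for the tRNA charging partners, 0.06 for the elongation factors and 0.93 for the ATF4 pathway.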

How the data were processed

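Per the labels and the study's methods, the authors aligned strand-specific poly(A) reads with STAR (2.5.0a, from the submitters' processing notes) to mm10, the build also called GRCm38, and the deposited values are raw HTSeq counts per gene, in 4 columns per replicate. The HTSeq mode and strand setting are not given in the sources used here. The sources do not define these columns. They were taken as runs of 1 library because they agreed within sampling noise (chi-square per degree of freedom 1.01 to 1.03, against 14.7 and 16.6 between replicates) and were added up to 4 libraries of 42694655, 56932059, 48483661 and 49511733 counts.

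edgeR 4.0.16 (R 4.3.3; TMM, default filterByExpr, quasi-likelihood test, group as the only factor, Benjamini-Hochberg adjustment over 13211 genes) was the test, 2-sided. CPM used TMM-adjusted library sizes. The SE was the log2 fold change divided by the square root of F. On simulated data over 13045 genes, 26% of 1.25-fold, 68% of 1.5-fold and 81.6% of 2-fold changes were called. Of these genes 12846 were left unchanged, while 40.8% of all genes were called in the real data. The p-value needed to pass the FDR threshold was thus smaller in the simulation. Its shares also cover genes of all levels, so they do not give the sensitivity for the members. The members and lists were chosen with earlier results of these data known, so counts and medians of a list are descriptions without a test. Values in all libraries were given by rule for the scaffold, Kars, Gars, Wars, Eprs, Qars and up to 5 called genes per direction in each compartment, and from each other list the 3 called genes with the largest change could be named. Other genes with library values were chosen after their values were seen. Some genes that this rule names in the other lists are not reported here. Exon bases and overlaps came from GENCODE M21, in which 46488 of 47069 gene IDs were found. Alternatives were DESeq2 1.42.0, RLE normalization, no filter on low counts, at least 10 counts in every library, a replicate block, the 16 runs as separate samples, genes without exons on the other strand, and leaving out each library.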

Additional observations from a re-analysis of the deposited data

How the results depend on the processing

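No setting turned the direction of a called member. The 9 reversed values were Lars2 at -0.06 without DMSO replicate 1 and -0.01 without GSI replicate 2 (leave-one-out range up to 0.70), Yars2 at -0.05 without DMSO replicate 2 and -0.13 without GSI replicate 2 (up to 0.21), Vars2 at -0.01 without DMSO replicate 1 (up to 0.17), and Rars2 at 0.04 without DMSO replicate 1, at 0.00 without GSI replicate 1 and with 16 runs, and at 0.01 without the filter. Over the 39 members and all settings, 372 values kept their direction and side of the threshold, 19 gained a call and 14 lost one. The lost calls were those of Aars2, Aimp1, Farsa, Farsb, Iars and Qars; the cause was not tested.

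Leaving out 1 library left 13 to 14 of 20 cytosolic genes called in place of 16, 1 to 5 of 16 mitochondrial genes in place of 2 (5 without GSI replicate 1), 1 to 2 scaffold genes, 4 to 5 complex enzymes, 9 amino acid response enzymes, 4 to 5 tRNA charging partners in place of 6, 0 to 1 elongation factors in place of 2, 27 to 46 mitochondrial ribosomal genes in place of 48 (27 without DMSO replicate 2), 13 to 15 ATF4 genes, 4162 to 4978 genes in all in place of 5392, and a cytosolic minus mitochondrial median of 0.14 to 0.26. DESeq2 called 1 mitochondrial gene, 3 partners and 1 elongation factor. Among genes without exons on the other strand, 3573 of 8969 were called, with 1 scaffold gene, 6 response enzymes and 3 partners, fewer genes being tested, and a difference between medians of 0.04. Taking the 16 runs as separate samples, which treats repeat runs as replicates, called 7 mitochondrial genes, 10 partners and 5 elongation factors.

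The replicate numbers were not taken as a pairing: with 2 pairs, the deviations of same-numbered libraries correlated at 0.155 over 13211 genes. With the number as a block, 17 cytosolic and 5 mitochondrial genes were called (Wars, Lars2, Tars2 and Wars2 being added) and 6444 genes in all.

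Library depth limited Pars2, with 23 to 81 counts, and Mars2, with 51 to 84, most among the members.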
